A study of Mus musculus with 13 samples.

Results

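In LβT2 cells, 5162 regions carried SMAD2/3 peaks in each activin library. Of these, 4642 (89.9%) overlapped no vehicle SMAD2/3 peak, and 2665 of these also overlapped a FOXL2 region and an H3K27ac region called in both activin libraries. These 2665 regions, 51.6% of the 5162, are called new co-occupied regions here. They were chosen by the peak calls themselves: SMAD2/3 peaks were merged where they shared 1 bp, and the absence of SMAD2/3 with vehicle and the presence of all 3 targets with activin are therefore the rule and not a result. What the rule did not use is the state of FOXL2 and H3K27ac before activin, the strength of the peaks within their lists, their position, and the genes around them. Of the other new SMAD2/3 regions, 1075 had FOXL2 and no H3K27ac region in both activin libraries, and 902 had no such FOXL2 region. A further 442 regions had FOXL2 and H3K27ac and a SMAD2/3 peak with vehicle too. As a comparison set, 9382 FOXL2 regions with H3K27ac in both activin libraries and no SMAD2/3 peak in any of the 4 SMAD2/3 lists were used; they are called acetylated FOXL2 regions without SMAD2/3.

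LβT2 is a mouse pituitary line of gonadotrope type. All cells carried a lentiviral cassette with constitutive GFP and doxycycline-inducible FLAG-mFoxL2, and all received doxycycline for 48 h, so that both treatments contained the tagged factor and "FOXL2" below means what the FLAG antibody recovered, not the cells' own protein. After 2 h in medium with 2% serum, activin A at 1 nM or its vehicle was given for 1 h, and chromatin fixed with 1% formaldehyde was enriched with antibodies to SMAD2/3, FLAG or acetylated lysine 27 of histone H3. Each treatment and antibody had 2 libraries, each a pool of 3 plates; the labels do not say whether the pools were grown separately or whether the line is 1 clone, so the spread between them may be technical.

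The peak lists held 605 and 144 SMAD2/3 peaks with vehicle, against 7784 and 5970 with activin, from 83834 to 97701 FOXL2 peaks and from 38995 to 41763 H3K27ac peaks. Reads per library were not analysed here, so depth is unknown, and a site without a peak is a site not called at that depth. The vehicle SMAD2/3 lists were short, and "new" means only that neither held a peak. H3K27ac at gene starts matched the gonadotrope label: 9 of 10 gonadotrope genes with a known start, among them Cga, Gnrhr, Nr5a1 and Pitx1, had a peak in all 4 lists, Fshb had none, and none of 5 marker genes of other pituitary lineages (Pomc, Pax7, Prl, Tshb and Ghrhr) had one.

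As background, activin binds serine/threonine kinase receptors that phosphorylate SMAD2 and SMAD3, which then enter the nucleus with SMAD4. SMAD proteins bind DNA weakly on short boxes and take much of their specificity from partner factors. In gonadotropes the forkhead factor FOXL2 is such a partner, required for synthesis of follicle-stimulating hormone. H3K27ac is laid down by the acetyltransferases CBP and p300, which SMAD3 can recruit, and marks active enhancers and promoters.

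No genome sequence was used here, so bases can be shown only for the few new co-occupied regions that fall on a RefSeq promoter window. Of the 2665 regions, 19 (0.713%) overlapped such a window, against 4.87% of the acetylated FOXL2 regions without SMAD2/3, and 10 had both activin SMAD2/3 summits inside one. The 4 sequences below are the 250 bases before the annotated start (RefSeq, GRCm38.p6), 5′ to 3′ in the direction of transcription. They were picked after their values were seen, to show a very strong site, a site acetylated without a vehicle H3K27ac peak, the start of a protein-coding gene, and a window with both motifs. Capitals mark the SMAD box, CAGAC or its reverse complement, and a forkhead motif, TAAACA or its reverse complement; no marked match of one overlaps a match of the other. Gm41452 is at chr16:37845845-37846094 on the minus strand, Luc7l2 at chr6:38555473-38555722 on the plus strand, Cltc at chr11:86757568-86757817 on the minus strand, and Gm32297 at chr4:108391003-108391252 on the plus strand.
Gm41452: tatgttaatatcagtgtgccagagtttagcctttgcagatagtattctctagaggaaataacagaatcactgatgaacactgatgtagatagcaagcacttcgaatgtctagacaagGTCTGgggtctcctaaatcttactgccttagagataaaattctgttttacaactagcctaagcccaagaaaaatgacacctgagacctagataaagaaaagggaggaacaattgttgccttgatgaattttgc
Luc7l2: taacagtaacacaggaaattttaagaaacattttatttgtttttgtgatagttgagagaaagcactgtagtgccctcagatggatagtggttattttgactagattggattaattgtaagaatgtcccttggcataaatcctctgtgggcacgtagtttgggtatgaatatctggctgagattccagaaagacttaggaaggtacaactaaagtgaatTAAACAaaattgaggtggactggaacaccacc
Cltc: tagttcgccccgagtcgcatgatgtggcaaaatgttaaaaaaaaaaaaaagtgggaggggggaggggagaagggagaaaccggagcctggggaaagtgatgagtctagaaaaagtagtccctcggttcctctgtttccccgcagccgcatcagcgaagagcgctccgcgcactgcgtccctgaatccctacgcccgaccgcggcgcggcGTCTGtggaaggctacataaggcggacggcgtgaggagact
Gm32297: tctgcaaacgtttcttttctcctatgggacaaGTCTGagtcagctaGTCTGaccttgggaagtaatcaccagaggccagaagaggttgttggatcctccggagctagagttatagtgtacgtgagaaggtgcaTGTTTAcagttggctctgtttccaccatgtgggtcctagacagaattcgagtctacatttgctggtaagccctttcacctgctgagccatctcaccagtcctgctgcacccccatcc

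In the Gm41452 window the single SMAD box lay from -133 to -129 bp of the start, between the SMAD2/3 summits of the activin libraries at -110 and -139 bp. This site had a mean SMAD2/3 percentile rank of 98.2, where 100 is the strongest peak of a list by −log10 q. Its FOXL2 ranks were 77.3 and 87.3 with vehicle, against 82.0 and 84.4 with activin. The nearest FOXL2 summits of activin libraries 1 and 2 lay 506 and 552 bp from the SMAD2/3 summit. The neighbouring new co-occupied region at chr16:37845262-37845574 had the same FOXL2 ranks, with FOXL2 summits 44 and 11 bp away. In the Cltc window, at the gene of the clathrin heavy chain, the box lay from -41 to -37 bp and the summits at -60 and -79 bp. The Gm32297 window, with a SMAD2/3 rank of 19.6, held 2 SMAD boxes and a forkhead match that began at -117 bp, with summits at -136 and -23 bp. In the Luc7l2 window, a splicing factor gene, the forkhead match began at -32 bp, away from summits at -161 and -152 bp; FOXL2 ranked at 98.9 and 98.8 with vehicle, against 99.3 and 99.5 with activin, and H3K27ac had no vehicle peak and ranks of 72.0 and 63.7 with activin. These matches are descriptions of letters: CAGAC occurs in 42.2% and TAAACA in 12.03% of all 32851 windows of this length, on either strand, and each was found in 4 of the 10 windows with summits.

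The first question was what stood at these regions before activin. At most of them FOXL2 was already there. Of the 2665 regions, 2307 (86.6%) overlapped a FOXL2 peak in vehicle library 1 and 2332 (87.5%) in vehicle library 2, a mean of 87.0% ± 0.663 (SD, n = 2). In both vehicle lists together, 2227 regions (83.6%, 95% Wilson interval 82.1% to 84.9%) had a FOXL2 peak, where 73.1% of all 80739 FOXL2 regions of the activin libraries did. No vehicle FOXL2 peak was called at 253 regions (9.49%), where the share over all FOXL2 regions was 13.8%.

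H3K27ac was present beforehand at fewer of them. It was called at 1940 regions (72.8%) in vehicle library 1 and at 1891 (71.0%) in vehicle library 2, a mean of 71.9% ± 1.30 (SD, n = 2). Both vehicle lists had an H3K27ac peak at 1776 regions (66.6%, interval 64.8% to 68.4%), where 83.6% of all 30492 H3K27ac regions did, and neither list had one at 610 regions (22.9%, interval 21.3% to 24.5%), where the share over all H3K27ac regions was 10.1%. The acetylated FOXL2 regions without SMAD2/3, held to the same requirement with activin, had H3K27ac in 83.0% and 81.8% of cases in the vehicle libraries, and in neither at 13.6%. The share was thus lower at the new co-occupied regions in both vehicle libraries, while FOXL2 shares lay close together (84.6% and 86.7% in the comparison set). This difference was not tested: an exact sign flip over 2 libraries gives no p under 0.5, and regions are not replicates. The shares were read over unlike widths. New co-occupied regions were read over the SMAD2/3 region, and the comparison set over the FOXL2 region. The share over all H3K27ac regions was read over the whole H3K27ac region. Counted over the whole FOXL2 region under each SMAD2/3 region, 79.0% and 76.8% had H3K27ac in the vehicle libraries. On that footprint 17.7% lacked H3K27ac in both vehicle lists, so the difference from the comparison set was smaller.

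**Figure D1:**
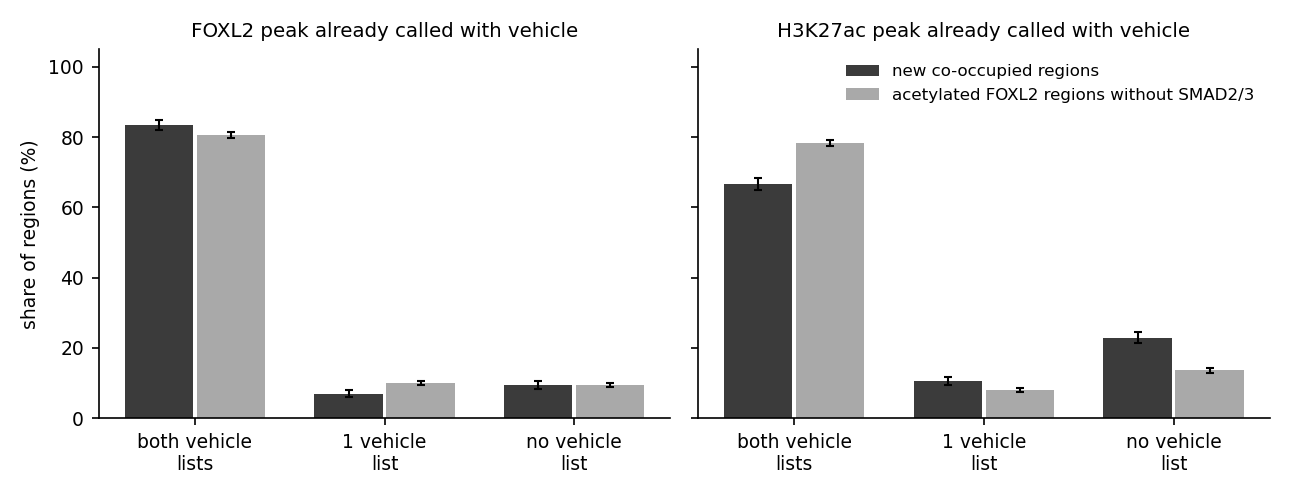
Share of regions (%) with a FOXL2 peak (left) or an H3K27ac peak (right) in both, 1 or neither of the vehicle lists, for the 2665 new co-occupied regions (dark) and the 9382 acetylated FOXL2 regions without SMAD2/3 (light); bars are shares and error bars 95% Wilson intervals, which cover counting error only. FOXL2 in both vehicle lists is at 83.6% and 80.7%, and the share without any vehicle H3K27ac peak is 22.9% against 13.6%. Peaks were read over the SMAD2/3 region in the former set and over the FOXL2 region in the latter. Over the FOXL2 region the 22.9% is 17.7%.

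Taken by both marks, 1547 regions (58.0%) had FOXL2 and H3K27ac in both vehicle lists, and 463 (17.4%) had FOXL2 in both and H3K27ac in neither. A further 93 regions (3.49%, interval 2.86% to 4.26%) had neither mark in any vehicle list. These 3 shares were read over the SMAD2/3 region. Over the FOXL2 region they were 65.4%, 12.6% and 3.41%. In the comparison set, read over the FOXL2 region too, they were 65.4%, 9.15% and 2.84%. Counting a peak in at least 1 vehicle list as present, 1895 regions had both marks, 517 had FOXL2 alone, 160 had H3K27ac alone and 93 had neither. With activin, the 517 regions with FOXL2 alone carried the highest FOXL2, with median fold enrichments over background of 20.8 and 18.8 in the activin libraries, and the lowest H3K27ac, 3.67 and 3.66. Regions with both marks had 10.9 and 10.7 for FOXL2 and 5.62 and 5.37 for H3K27ac. Regions with H3K27ac alone had a FOXL2 fold of 5.37 and 5.64 and an H3K27ac fold of 5.96 and 5.72. The 93 regions with neither reached 5.81 and 6.22 for FOXL2 and 4.02 and 4.17 for H3K27ac. SMAD2/3 differed less: its median fold was 6.17 and 5.72 where both marks were present beforehand, 7.20 and 6.58 with FOXL2 alone, 7.31 and 6.80 with H3K27ac alone, and 7.06 and 6.59 with neither. In the comparison set, regions with FOXL2 alone beforehand also had the highest FOXL2 fold, 9.71 and 9.47, and the lowest H3K27ac fold, 3.26 and 3.21. These fold values are the authors', they come from the activin lists that chose the regions, and they are given without a test.

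SMAD2/3 itself covered a wide range at the new co-occupied regions. The fold enrichment ran from 2.15 to 26.4 in activin library 1 and from 2.41 to 28.2 in activin library 2, with medians of 6.46 and 5.97. Across the 2665 regions the fold of the activin libraries had a Spearman rho of 0.804, and their summits lay a median of 23 bp apart. New regions with FOXL2 and no H3K27ac had medians of 5.93 and 5.69, and regions also called with vehicle 11.96 and 11.63. The weakest members sat at the lower end of the lists, where −log10 q was 1.33 and 1.30, the lowest values deposited. A SMAD2/3 peak in activin library 1 and not in library 2 was found at 2608 regions, and the opposite case at 774. These were counted whatever their FOXL2, H3K27ac or vehicle SMAD2/3 calls. Without the SMAD2/3 list of activin library 2 the rule gave 3491 regions, and without that of library 1 it gave 2797.

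SMAD2/3 and FOXL2 summits nearly coincided. Measured to activin FOXL2 summits, the median separation was 30 bp in library 1 and 31 bp in library 2, 30.5 ± 0.707 bp (SD, n = 2), and 84.6% and 83.4% of the regions were within 100 bp. Measured to vehicle FOXL2 summits it was 41 and 44 bp, with 71.1% and 70.8% within 100 bp. All 2665 regions were counted there, though only 2307 and 2332 overlapped a FOXL2 peak of vehicle libraries 1 and 2. For the others the nearest vehicle summit belonged to a peak outside the region. The new regions with FOXL2 and no H3K27ac had 26 and 28 bp with activin. The regions also called with vehicle had 28 bp in each activin library. Overlap with a FOXL2 region was required, which limits how far apart summits can be.

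The second question was whether FOXL2 and H3K27ac held a different place in their lists with activin. At 2222 new co-occupied regions with a FOXL2 peak in all 4 lists, the median percentile rank was 78.3 and 81.0 with vehicle, against 86.3 and 86.8 with activin, so the groups did not overlap. FOXL2 ranked higher in both activin than in both vehicle lists at 1082 of these regions (48.7%, interval 46.6% to 50.8%), where 29.7% of all 58985 FOXL2 regions with 4 peaks did, and lower at 498 (22.4%), where 28.4% did. The fold enrichments behind these ranks were 11.0 and 10.1 with vehicle, against 13.2 and 12.8 with activin. In the same libraries the acetylated FOXL2 regions without SMAD2/3 had median ranks of 64.3 and 68.6 with vehicle, against 62.8 and 64.6 with activin. Of these, 21.1% ranked higher and 36.6% lower. Of the new SMAD2/3 regions with FOXL2 and no H3K27ac, 917 had 4 FOXL2 peaks. FOXL2 ranked higher at 65.98% of them and lower at 13.6%. The mean of their library medians was 7.43 points higher with activin, against 6.88 points at the new co-occupied regions. The higher FOXL2 rank was thus not limited to regions with H3K27ac in both activin libraries.

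A rank depends on the other peaks of its list. The distance between the new co-occupied regions and the comparison set was therefore compared within each library. For FOXL2, new co-occupied regions ranked above the comparison set by 14.0 and 12.4 points with vehicle, against by 23.5 and 22.2 points with activin. The mean distance was 13.2 ± 1.1 (SD, n = 2) with vehicle. With activin it was 22.8 ± 0.892 (SD, n = 2), so that treatments differed by 9.63 points, with an exact two-sided permutation p of 0.33, the smallest that 2 libraries against 2 can give.

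H3K27ac showed the same order. At 1719 regions with an H3K27ac peak in all 4 lists the median rank was 83.0 and 83.1 with vehicle, against 91.5 and 88.9 with activin, and the fold enrichment 5.10 and 4.65 against 5.86 and 5.63. H3K27ac ranked higher in both activin lists at 1102 regions (64.1%, interval 61.8% to 66.3%), where 25.3% of all 25489 H3K27ac regions with 4 peaks did, and lower at 309 (17.98%), where 33.1% did. The comparison set had median ranks of 81.1 and 81.3 with vehicle, against 80.3 and 75.3 with activin, with 24.8% higher and 44.5% lower. With vehicle the sets were nearly level in H3K27ac: the rank of new co-occupied regions minus that of the comparison set was 1.93 and 1.78 points. With activin they were above it by 11.2 and 13.7 points, a difference of 10.6 points between treatments (exact two-sided permutation p = 0.33, again the smallest possible). The order with vehicle depended on the footprint. With peaks read over the whole FOXL2 region, as they are in the comparison set, the distance was -0.815 and -1.70 points with vehicle, against 9.41 and 11.97 with activin.

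**Figure D2:**
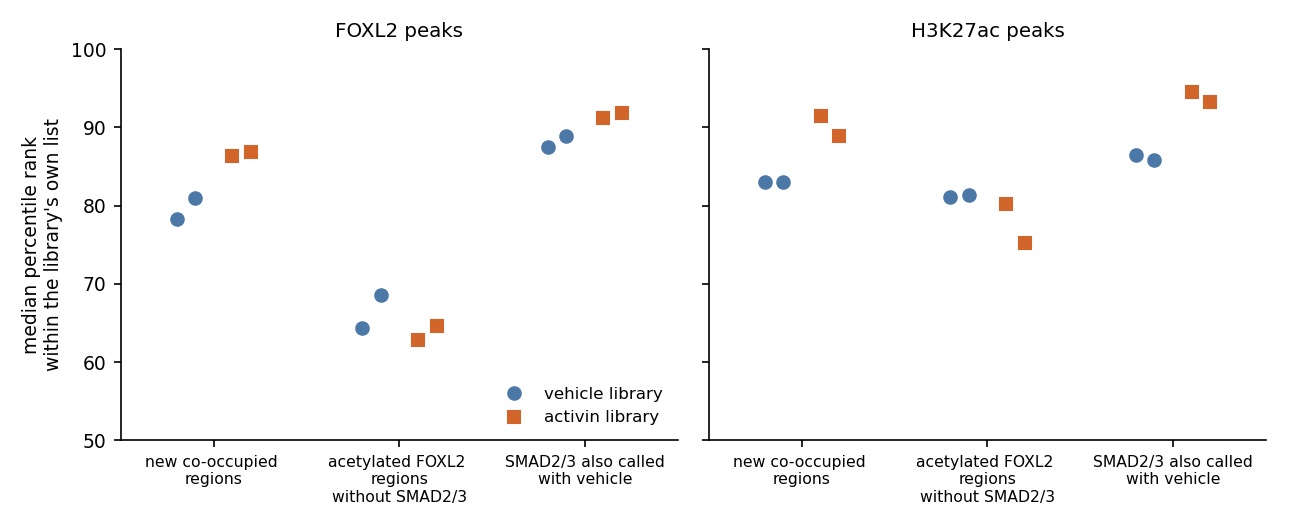
Median percentile rank (100 = strongest peak of the library's own list) of FOXL2 (left) and H3K27ac peaks (right) in regions with a peak in all 4 lists; each symbol is 1 library, circles vehicle and squares activin, and the axis starts at 50. At the new co-occupied regions both activin libraries lie above both vehicle libraries, at the acetylated FOXL2 regions without SMAD2/3 they do not, and the 442 regions also called with vehicle follow the former.

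The shares were also set side by side at like peak strength. With all regions of both sets divided into 4 equal parts by their mean rank over the 4 libraries, FOXL2 ranked higher with activin at 37.3%, 52.6%, 53.6% and 47.5% of new co-occupied regions from the lowest to the highest part, and at 16.9%, 22.6%, 23.0% and 22.6% of the comparison set. For H3K27ac the shares were 73.2%, 72.7%, 62.4% and 55.2% against 22.1%, 24.9%, 24.9% and 27.8%.

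The shares followed the strength of SMAD2/3. From the weakest to the strongest of 4 equal parts by SMAD2/3 rank, FOXL2 ranked higher with activin at 35.1%, 42.9%, 51.7% and 64.6% of the regions. For H3K27ac the shares were 49.0%, 57.1%, 64.8% and 84.0%. Regions ranking lower with activin made up 31.9% for FOXL2 and 25.6% for H3K27ac in the weakest part, and 11.2% and 5.83% in the strongest. Over all FOXL2 regions with 4 peaks 29.7% ranked higher and 28.4% lower, so the weakest part lay near those shares. Over all H3K27ac regions with 4 peaks 25.3% ranked higher and 33.1% lower. Presence before activin did not follow SMAD2/3 strength in this way: FOXL2 was in both vehicle lists at 83.5%, 83.0%, 82.0% and 85.7%, and H3K27ac at 70.2%, 62.9%, 63.8% and 69.7%. The strength of the vehicle peaks was less even. At regions with 4 H3K27ac peaks, vehicle median ranks were 79.3 and 78.6 in the strongest part, against 83.4 to 85.9 in the others. For FOXL2 they were highest in the strongest part, at 80.0 and 82.7, against 75.1 and 80.1 in the weakest. How far the shares depend on these starting ranks was not tested. SMAD2/3, FOXL2 and H3K27ac peaks come from different libraries of the same treatment, and the 4 parts share those libraries. No test was therefore made over regions.

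**Figure D3:**
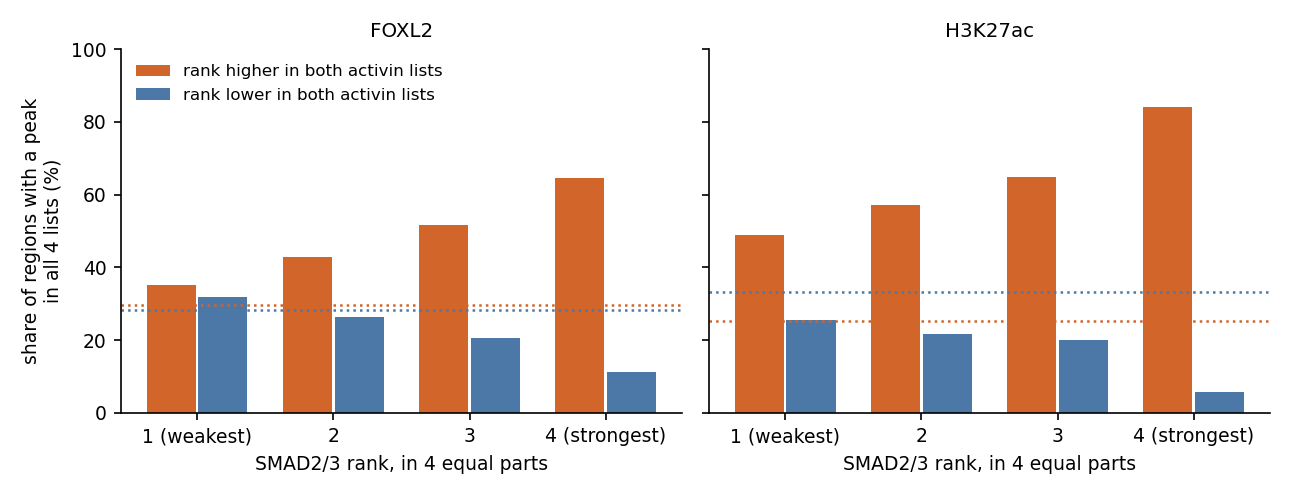
Share (%) of new co-occupied regions with a peak in all 4 lists whose FOXL2 (left) or H3K27ac (right) rank was higher (orange) or lower (blue) in both activin than in both vehicle lists, in 4 equal parts by SMAD2/3 rank; dotted lines give the same shares over all regions of that target. The share ranking higher goes from 35.1% to 64.6% for FOXL2 and from 49.0% to 84.0% for H3K27ac. The vehicle H3K27ac median ranks of these regions were lowest in the strongest part.

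H3K27ac peaks also covered more of the surroundings of the summits with activin, a difference that the rule favours, since it required an activin H3K27ac region. Within 1000 bp on each side of the SMAD2/3 summit, a window of 2000 bp, H3K27ac peaks covered on average 1235 and 1208 bp with vehicle, against 1729 and 1574 bp with activin. The difference was 430 bp. The comparison set, centred on FOXL2 summits and held to the same requirement, had 1267 and 1248 bp against 1376 and 1200 bp, a difference of 30.5 bp. A vehicle window without any H3K27ac peak was found for 16.4% and 17.6% of the new co-occupied regions, and an activin window without one for none of them, as the rule fixes; these values are given without a test. The profile had 2 shoulders with a dip at the summit. At -400 bp, an H3K27ac peak covered 71.7% and 69.0% of the regions with vehicle, against 95.9% and 91.1% with activin, while at the summit itself coverage was 59.2% and 58.3% with vehicle, against 80.9% and 69.3% with activin. In the comparison set coverage at the summit was 69.4% and 68.1% with vehicle, against 75.6% and 64.3% with activin, against 69.3%, 68.2%, 76.7% and 67.9% at -400 bp. An activin H3K27ac region was required at every member of both sets, which raises coverage near the centre with activin in both.

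**Figure D4:**
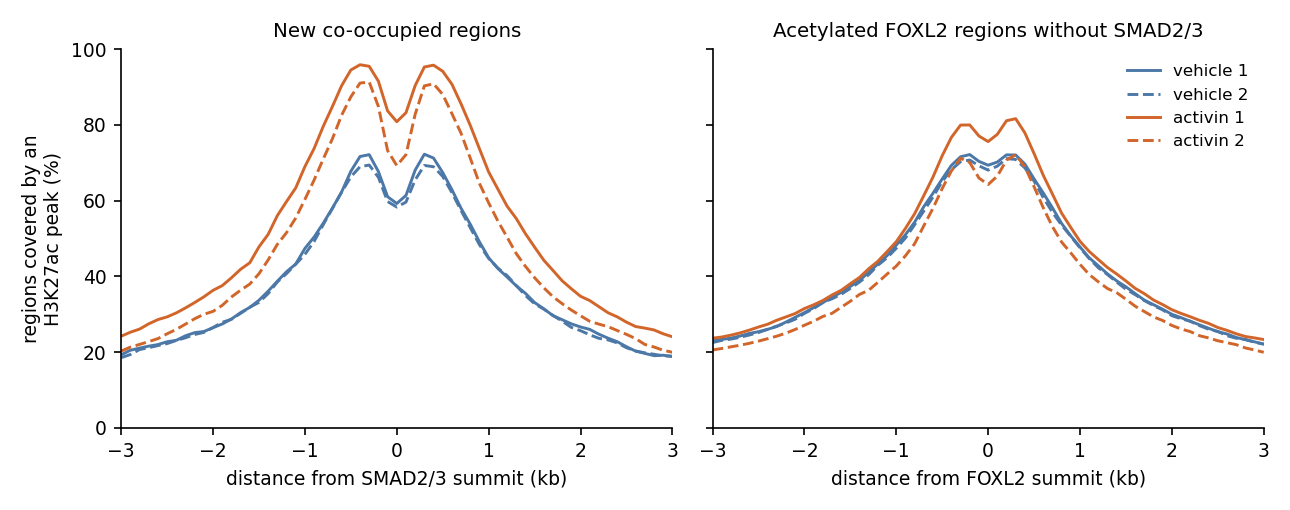
Share of regions (%) covered by an H3K27ac peak at each distance from the summit (kb), for new co-occupied regions around the SMAD2/3 summit (left) and acetylated FOXL2 regions without SMAD2/3 around the FOXL2 summit (right); blue lines are the vehicle and orange lines the activin libraries, solid for library 1 and dashed for library 2. On the left both activin lines run above both vehicle lines and dip from 95.9% and 91.1% at -400 bp to 80.9% and 69.3% at the summit; on the right the 4 lines lie close together.

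Most new co-occupied regions were far from promoters. By the deposited annotation 1434 (53.8%) were intronic, 539 of them in a first intron, 973 (36.5%) were intergenic, 86 lay at transcription ends, 64 in exons and 108 (4.05%, interval 3.37% to 4.87%) at promoters. In the comparison set 11.0% were at promoters and 28.0% intergenic. The median distance to the nearest annotated start was 20610 bp, against 15118 bp in the comparison set, and 3.53% against 9.89% lay within 1 kb of one. New regions with FOXL2 and no H3K27ac had a promoter share of 1.58%, and regions also called with vehicle 5.20%. The position of a region relative to starts was not used by the rule; these shares are given as descriptions.

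They lay in wide acetylated domains. The 2665 regions fell in 2495 H3K27ac regions of the activin libraries, 8.18% of 30492, with a median width of 2786 bp, against 1149 bp over all H3K27ac regions and 1743 bp for those holding a comparison region. A wider region has more room for a SMAD2/3 peak. Of these domains 2291 held 1 new co-occupied region, 184 held 2, 18 held 3 and 2 held 4. Another new co-occupied region lay within 10 kb of 672 (25.2%). The domains with 4 were at chr14:65215885-65226481, nearest to Gm27263 and, among protein-coding genes, to Fzd3, a Wnt receptor gene, and at chr7:141389806-141399999 at Taldo1, the transaldolase gene of the pentose phosphate pathway. H3K27ac of the Taldo1 domain ranked at 87.0 and 90.3 with vehicle, against 95.1 and 96.0 with activin, and that near Fzd3 at 73.8 and 67.9 against 83.7 and 76.4. A domain of 7301 bp at chr16:37840929-37848229 held 3, among them the Gm41452 site printed above; its H3K27ac ranks were 93.9 and 91.3 with vehicle, against 98.3 and 98.8 with activin. These 3 sites lay 65.6, 68.4 and 68.9 kb downstream of the start of Fstl1, which encodes a follistatin-like secreted protein.

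The 15 regions of highest SMAD2/3 rank showed each of the starting states. FOXL2 was absent from both vehicle lists at 3 of them, where it was at 9.49% of the 2665 and 13.8% of all FOXL2 regions. The region at chr17:63331809-63332382, in intron 3 of Fbxl17, an F-box gene, had no vehicle FOXL2 peak and FOXL2 ranks of 86.7 and 80.2 with activin, inside a domain whose H3K27ac ranked at 99.5 and 99.8 with vehicle, against 99.9 and 99.7 with activin. The region at chr17:56363227-56363664 in intron 5 of Kdm4b, a histone demethylase gene, gained a FOXL2 call at ranks of 38.3 and 42.4, while H3K27ac ranked at 68.6 and 64.1 with vehicle, against 98.2 and 97.9 with activin. The site -13.2 kb from Esr2 (ENSMUSG00000021055), the gene of estrogen receptor β, had neither mark with vehicle. Its FOXL2 ranks with activin were 85.0 and 89.9 and its H3K27ac ranks 92.8 and 92.3. The site -5.99 kb from Atp13a3, a cation-transporting ATPase gene, had FOXL2 in 1 vehicle list, and its H3K27ac ranked at 22.1 and 5.73 with vehicle, against 92.9 and 92.5 with activin.

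At the other strong sites FOXL2 was present beforehand. The site in intron 1 of Papd4, which encodes a poly(A) polymerase, had FOXL2 ranks of 96.3 and 91.3 with vehicle, against 99.7 and 99.2 with activin, with fold enrichments of 26.4 and 17.3 against 42.6 and 32.9. The site -2.71 kb from Ldlrad4, an inhibitor of SMAD signalling, had FOXL2 ranks of 99.3 and 99.8 with vehicle, against 99.8 and 99.6 with activin, so the groups overlapped, while H3K27ac ranked at 39.3 and 35.3 against 83.2 and 68.9. Of the 15, 12 had H3K27ac in both vehicle lists, and at 11 of these it ranked higher in both activin lists. The exception was the site in Fbxl17. In the strongest of the 4 parts by SMAD2/3 rank, 69.7% had H3K27ac in both vehicle lists. With 4 H3K27ac peaks, 84.0% of that part ranked higher, against 25.3% of all H3K27ac regions. Outside the 15, the strongest regions with H3K27ac and no FOXL2 beforehand included one 5.89 kb from Hesx1, a homeobox repressor of pituitary development: FOXL2 ranked at 54.8 and 62.5 with activin, and H3K27ac at 64.3 and 64.9 with vehicle, against 93.5 and 95.4 with activin.

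The largest shifts of FOXL2 were chosen for their size and are described without a test. In intron 2 of Tsc22d2, which encodes a leucine zipper protein of the TSC22 family, FOXL2 ranked at 1.29 and 9.29 with vehicle, against 93.0 and 91.7 with activin, with fold enrichments of 2.65 and 3.08 against 22.1 and 22.2. In intron 1 of C1d, an RNA exosome cofactor gene, the ranks were 4.68 and 28.0 against 91.2 and 92.6. H3K27ac at C1d was high in all 4 lists, from 85.5 to 96.8, and at Tsc22d2 it had a peak over the site in 1 activin list. Tle4, a corepressor gene of the Groucho family, had FOXL2 ranks of 2.40 and 12.3 against 73.6 and 85.7 at an intronic site. The opposite order was also found. The site -43.6 kb from Angpt1, an angiopoietin gene, had FOXL2 ranks of 98.7 and 99.6 with vehicle, against 31.6 and 51.7 with activin, with fold enrichments of 30.6 and 31.9 against 4.79 and 6.64, although SMAD2/3 was called there with activin. In intron 1 of Btbd3 the FOXL2 ranks were 72.9 and 77.8 against 15.6 and 11.6, and H3K27ac stayed between 99.2 and 99.6.

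The largest shifts of H3K27ac were at a site -32.7 kb from Mir3085, in an intron of Crtac1, and near Atp13a3, Gm27649, Brpf1 and Gm12713. At the Mir3085 site H3K27ac ranked at 0.108 and 23.1 with vehicle, against 93.4 and 92.0 with activin. At the site -18.9 kb from Brpf1, a scaffold of histone acetyltransferase complexes, it ranked at 0.628 and 8.04 against 82.7 and 74.6; FOXL2 there ranked at 66.9 and 76.5 against 83.1 and 82.5. At -0.689 kb from Gm27649, the acetylation ranks were 3.39 and 6.41 against 82.3 and 78.4, while FOXL2 ranked at 89.5 and 91.6 with vehicle, against 88.8 and 87.3 with activin. The lowest point on the other side was a site -16.1 kb from a Pde4b start, a cAMP phosphodiesterase gene, where H3K27ac ranked at 88.6 and 88.8 with vehicle, against 42.6 and 12.8 with activin and FOXL2 between 97.8 and 98.7 in all 4 lists.

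The genes around the regions were many. Their nearest starts belonged to 1977 genes, 6.94% of the 28467 that any list names, and the nearest protein-coding starts to 1733 genes, 11.9% of 14532. Most regions had no protein-coding start close by, with a median distance of 40945 bp. The genes with the most regions by nearest protein-coding start were Auts2 with 12 and Cntn4 with 8, followed by Cacnb2, Cenpc1, Dpp10, Eef2kmt, Fbxl17, Rbfox1 and Tenm4 with 7 each. By nearest start of any kind the counts reached 7, at RP23-378O9.1. Auts2, Cntn4, Tenm4, Cacnb2 and Fbxl17 also held the most regions within their introns, from 9 to 7. These are long genes, and Auts2 and Cntn4 were also nearest to 20 and 24 comparison regions.

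Of 20 gonadotropin and gonadotrope genes named in any list, 9 (45%) were the nearest gene of at least 1 new co-occupied region, among them Cga, Gnrhr, Esr2, Nr5a1, Nr0b1, Pitx1, Isl1 and Nr3c1. With any region within 100 kb of the start counted, 13 of 20 (65%) had one, where 23.7% of all 14546 protein-coding genes with a derived start did. Comparison regions were nearest to 7 of these 20 genes (35%), against 17.7% of all genes. The list was written with earlier results of these data known and is described by its counts.

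Cga, the common α subunit of the gonadotropins, had 5 new co-occupied regions within 100 kb. The region at -4.07 kb had strong FOXL2 in every list, with ranks of 99.3 and 99.5 with vehicle, against 98.6 and 98.5 with activin, and H3K27ac at 98.2 and 98.5 against 97.1 and 96.7. The region at -3.62 kb had the same values except in activin library 2, where its FOXL2 peak ranked at 61.1. The region 2.02 kb inside the gene had weak FOXL2 with vehicle, at ranks of 4.37 and 2.99, and ranks of 40.9 and 41.6 with activin, in chromatin whose H3K27ac ranked between 99.3 and 99.8 in every list. A region 24.0 kb downstream of the start had FOXL2 ranks of 17.0 and 7.09 against 57.6 and 65.6, and H3K27ac ranks of 50.1 and 59.5 against 81.4 and 89.9. The fifth, 72.1 kb from the start, had FOXL2 at 20.3 in 1 vehicle list, against 60.7 and 71.3 with activin. H3K27ac there ranked at 61.2 in 1 vehicle list and at 41.5 in 1 activin list, which gives no order between the treatments.

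Around Esr2 there were 5 within 100 kb. Besides the site at -13.2 kb, that at -16.5 kb had FOXL2 ranks of 4.68 and 3.57 with vehicle, against 69.9 and 40.1 with activin, and H3K27ac ranks of 49.6 and 37.7 against 93.6 and 91.9. The site at 65.3 kb had FOXL2 at 73.5 and 51.4 against 94.6 and 92.2 and no vehicle H3K27ac peak. The site at 59.3 kb had FOXL2 at 69.9 and 68.4 against 82.5 and 80.5, and H3K27ac at 40.8 in 1 vehicle list, against 73.3 and 79.1 with activin. The site at -56.1 kb, in Tex21, went the other way in H3K27ac, with 94.4 and 95.6 against 89.7 and 79.6.

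At Gnrhr, the receptor for gonadotropin-releasing hormone, 1 region lay on the promoter (-0.202 kb) and 1 in an intron (5.79 kb). At the promoter FOXL2 ranked at 80.6 and 86.6 with vehicle, against 69.7 and 70.8 with activin, lower with activin in spite of a SMAD2/3 rank of 89.1. At the intronic site FOXL2 ranked between 99.1 and 99.7, and the H3K27ac domain over both ranked between 97.6 and 99.1. The promoter of the homeobox gene Pitx1 held 1 region. FOXL2 at Pitx1 had no vehicle peak and activin ranks of 22.9 and 6.56 within an H3K27ac domain that ranked at 99.9 in both vehicle lists.

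Nr5a1, the gene of the nuclear receptor SF-1, had a region 15.3 kb inside it with FOXL2 in 1 vehicle list at a rank of 1.2 and at 18.2 and 45.02 with activin. Isl1, a LIM homeobox gene, was the nearest protein-coding gene of 6 regions spread from 12.7 to 550 kb, and of 26 comparison regions. At 308 kb from Isl1, FOXL2 ranked at 0.825 and 24.6 with vehicle, against 79.4 and 85.9 with activin. Fshb, the gene of the hormone's β subunit, had regions at -60.2 and -90.4 kb. FOXL2 at both was weak wherever it was called, at most 42.6, and had no peak at the first in 1 vehicle list, and H3K27ac ranked at 83.5 and 85.3 against 94.5 and 89.5 at the first and at 77.2 and 79.7 against 89.0 and 90.1 at the second. Between them lies one of the strongest SMAD2/3 regions that failed the rule through a vehicle SMAD2/3 peak, at chr2:107126817-107127530, with a mean SMAD2/3 rank of 99.98.

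**Figure D5:**
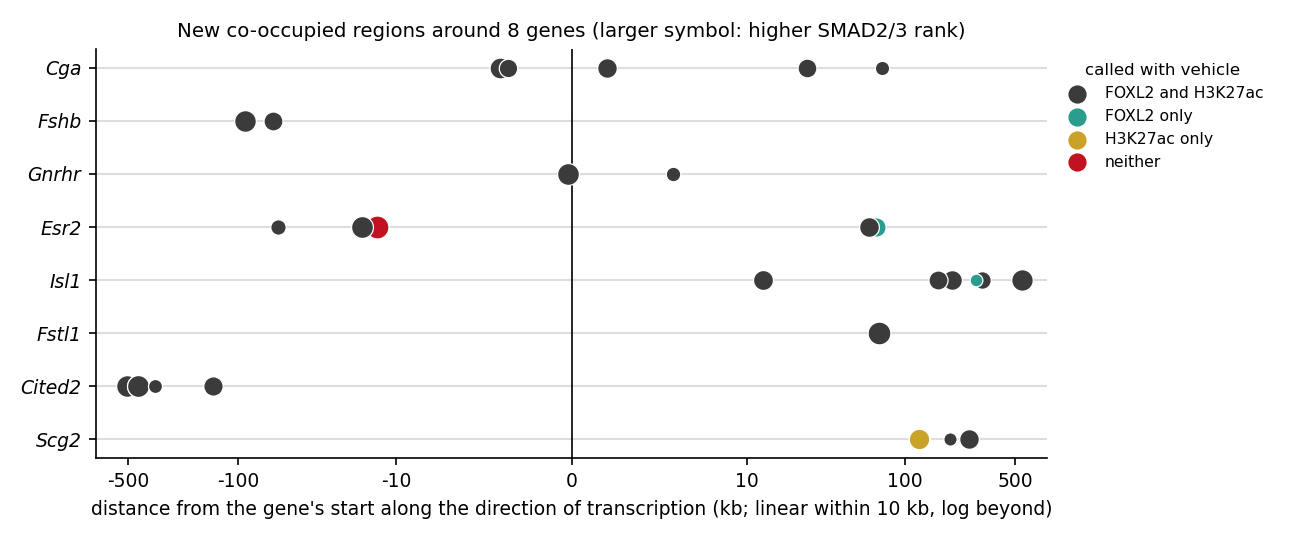
New co-occupied regions around 8 genes by distance from the gene's start (kb, negative upstream; linear within 10 kb and logarithmic beyond); symbol area follows the mean SMAD2/3 rank, and colour gives whether FOXL2 and H3K27ac were called at the region in at least 1 vehicle list. Most symbols are dark, with both marks called beforehand; the region of Esr2 at -13.2 kb is the 1 with neither.

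Genes of the activin pathway were looked at by role. Of 21 ligand and antagonist genes named in any list, 2 (9.52%) were the nearest gene of a region, beside 6.94% of all genes. Inhbb, which encodes the βB subunit of activin B and inhibin B, had a site 28.9 kb from its start where FOXL2 ranked at 14.7 and 39.1 with vehicle, against 33.0 and 12.4 with activin, overlapping groups, while H3K27ac ranked at 57.8 and 62.2 against 96.3 and 85.7. Grem1, a BMP antagonist, had an intronic site with FOXL2 between 92.5 and 94.7 in all lists and H3K27ac called with activin alone, at 81.1 and 68.4. Of 11 receptor genes 2 (18.2%) were nearest to a region, Bmpr1a with 1 and Bmpr1b with 3, both type I BMP receptors. Among 9 SMAD and partner genes there were Smad3, with a site 48.5 kb inside it, and Crebbp, which encodes CBP; the Crebbp site had FOXL2 between 99.2 and 99.9 in every list and no vehicle H3K27ac peak. Of 11 feedback inhibitors Ldlrad4 and Cited2 were nearest genes. Smad7 was not the nearest gene of any, but was the nearest protein-coding gene of 2 regions and had 2 within 100 kb. Of comparison regions, 3 lay within 100 kb of Smad7. Cited2, a CBP and p300 binding protein, was the nearest protein-coding gene of 5 regions from -509 to -145 kb, and at the nearest of them FOXL2 ranked at 67.0 and 71.4 with vehicle, against 89.3 and 84.7 with activin.

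Among genes of regulated secretion 2 of 17 were nearest to a region. The site -7.13 kb from Chgb, the chromogranin B gene, had a SMAD2/3 rank of 94.0, FOXL2 at 94.1 and 96.7 with vehicle, against 98.7 and 98.3 with activin, and H3K27ac at 52.3 and 27.7 against 85.5 and 85.1. Cpe, carboxypeptidase E, had an intronic site with FOXL2 ranks of 87.7 and 89.6 against 84.1 and 89.5, overlapping groups. Scg2, secretogranin II, was the nearest protein-coding gene of 4 regions and of 27 comparison regions. At 123 kb from Scg2 a region had no vehicle FOXL2 peak and activin ranks of 81.7 and 76.8, with H3K27ac at 11.3 in 1 vehicle list and at 94.9 and 94.4 with activin. Of 18 immediate early genes Fos had 1 region, -12.2 kb from its start, and of 17 classic SMAD targets Vegfa had 3, from 76.7 to 143 kb. None of 9 genes of other pituitary lineages and none of 12 housekeeping genes was the nearest gene of a region, against 6.94% of all genes; within 100 kb, 3 of 8 (37.5%) and 4 of 12 (33.3%) had one, where 23.7% of all genes did.

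Beside the weakest members stand regions that failed a single requirement. The weakest new co-occupied region by SMAD2/3, 79.8 kb from Gm12638, had a mean rank of 1.03 and fold enrichments of 2.30 and 2.93. The strongest new region without FOXL2, near Gm13553 at chr2:26195390-26195849, had a rank of 99.2 and H3K27ac at 90.9 and 84.6 with activin. The strongest with FOXL2 and without H3K27ac, in an intron 100 kb from the Kcnh7 start, a potassium channel gene, had a rank of 96.8, and FOXL2 ranked between 99.8 and 99.9 there in all 4 lists.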

How the data were processed

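Peaks of 12 libraries were used; per the submitters' processing notes the authors used Bowtie2, MACS2 and HOMER with GRCm38/mm10, whose versions and settings are not given in the sources used here. The Protein-A control was not analysed here. Each deposited list gives, per library, the authors' fold enrichment (a linear ratio), their −log10 p and q, and a score; annotation classes and distances to starts are from HOMER's annotatePeaks, per the file headers. SMAD2/3 and FOXL2 lists are narrow, H3K27ac lists broad. Read depth is unknown.

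Regions were merged and overlapped at 1 bp with Python 3.11.15, pandas 2.3.3, numpy 2.4.6 and scipy 1.17.1. A percentile rank is the place of the strongest overlapping peak by −log10 q in its own list. Gene starts were derived from deposited distances; of 12193 with a RefSeq window, 59.6% lay within 100 bp of it and 100% had its strand. Treatments were set against each other by exact two-sided permutation over 6 labellings, whose smallest p is 0.33; it measures only the spread between these samples. Wilson intervals (95%) cover counting error only. The overlap steps were tested on simulated data.

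The members and the gene lists were chosen with earlier results of these data known. Named genes are the 15 strongest regions by SMAD2/3, the genes with most regions, list genes with a region, the strongest regions of each starting state, the 5 largest shifts each way, regions within 500 kb of Fshb, and the 3 weakest members and 3 strongest near misses of each kind; the text prints a selection of them, and list genes within 100 kb or by nearest protein-coding start were added afterwards. The replicate numbers were not found to pair the samples. Alternatives were overlap, threshold, absence window, ranking measure, absent peaks at percentile 0, leaving out each library, and, chosen after seeing the data, list length, footprint and the nearest protein-coding start. SMAD2/3 values, activin peak calls and H3K27ac coverage, which the rule fixes in whole or in part, were described without a test. Regions are not replicates.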

Additional observations from a re-analysis of the deposited data

How the results depend on the processing

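The activin minus vehicle differences in rank and in distance to the comparison set kept their direction under each alternative tried. The exact permutation p was 0.33 wherever that test was run, and it was not run with a library left out. The H3K27ac distance with vehicle alone did not keep its direction: over the FOXL2 region its mean turned from 1.85 to -1.26 points. With absent peaks at percentile 0 the difference in H3K27ac rank was 17.8 points, against 7.13, and that in H3K27ac distance 21.5, against 10.6. The rule required FOXL2 and H3K27ac regions with activin only. Absent peaks therefore fell mostly in the vehicle lists, and this setting favours a rise by construction. Leaving out 1 library at a time gave from 2429 to 3491 regions, shares with FOXL2 in both (or the remaining) vehicle lists from 81.5% to 87.5%, and shares with H3K27ac from 66.2% to 72.8%. It gave rank differences from 5.52 to 8.25 points for FOXL2 and from 5.87 to 8.40 for H3K27ac, distances to the comparison set from 8.86 to 10.4 and from 9.34 to 11.8, and summit separations from 30 to 31 bp. With at least 50% of the region covered the H3K27ac share was 74.4%. With a −log10 q of at least 5 there were 1683 regions and the FOXL2 share was 81.8%. With lists limited to the 83834 strongest peaks the FOXL2 share was 84.4%. Over the FOXL2 region, an alternative chosen after seeing the data, the shares were 84.5% for FOXL2 and 73.5% for H3K27ac. Vehicle FOXL2 summits gave 42.5 bp, with regions lacking a vehicle FOXL2 peak counted too.

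With any region within 100 kb, where 23.7% of all genes had one, the genes counted were 5 of 20 ligands, 4 of 11 receptors, 4 of 10 feedback inhibitors, 4 of 17 classic targets, 3 of 8 genes of other lineages, 8 of 16 secretory and 4 of 12 housekeeping genes. By nearest protein-coding start, chosen after seeing the data, where the share of all genes was 11.9%, they were 4 of 11 receptors, 2 of 16 immediate early genes, 3 of 17 classic targets, 1 of 8 genes of other lineages and 6 of 16 secretory genes.

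Deviations of libraries with the same replicate number had correlations of -0.00667 over 2222 FOXL2 regions and 0.0215 over 1719 H3K27ac regions. They gave no sign of pairing by number. With 2 libraries per group they cannot show whether libraries of the same number were prepared together. With a replicate block the rank differences were 6.88 and 7.13 points and the distances to the comparison set 9.63 and 10.6, as without it; a sign flip over 2 pairs gives no p under 0.5. The motif count at summits, with its narrower window, was not run. Depth, unknown here, limits what an absent vehicle peak can show.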
